A study of Bos taurus with 9 samples.

Results

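Genes of ion channels, gap junctions and water channels were followed through the chondrogenesis of bovine marrow cells in a hydrogel. The genes were taken by name, from platform symbols that mark potassium (KCN), calcium (CACN), sodium (SCN), transient receptor potential (TRPC, TRPM, TRPV) and chloride (CLCN, CLIC, ANO) channels, aquaporins (AQP), ATP-gated channels (P2RX), mechanically or acid gated channels (PIEZO, ASIC), connexins (GJA, GJB, GJC) and pannexins (PANX). Of 9155 genes with a single symbol, 78 met the rule, and each was read from its probe set of highest mean. The set held 26 potassium, 15 calcium, 10 chloride, 9 TRP, 7 connexin or pannexin, 6 aquaporin and 4 P2X genes and 1 sodium channel gene. No probe set was named for a PIEZO or ASIC gene, and of 21 genes on a fixed list for naming, PIEZO1, PIEZO2, ANO1, ANO6, CACNA1C, PANX3 and TRPM7 are not analysed here. Accessory or regulatory subunits and binding partners made up 17 of the 78.

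Expression was measured on 9 single-colour arrays in cells from 3 calves aged 3 to 6 months, with 1 array per calf in each group. Mesenchymal stem cells (MSCs), the marrow stromal cells that can form cartilage, bone and fat, were seeded in agarose and taken at once (day 0, undifferentiated) or after 28 days in chemically defined medium with 10 ng/mL TGF-beta3, a growth factor that induces cartilage formation. Articular chondrocytes of the same calves were kept in agarose in the same medium for 28 days. No group held chondrocytes at day 0 or MSCs cultured without TGF-beta3, so that time, medium and growth factor cannot be told apart in the MSC comparison, nor can these and cell source in chondrocytes against day 0 MSCs.

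Chondrocytes lie in a dense, negatively charged matrix whose ion content and osmolarity shift with every load. Channels in their membrane pass potassium, chloride, calcium and water in response to stretch, swelling, acid or ATP, and so set the resting potential, cell volume and calcium signals. Undifferentiated stromal cells also couple to each other through gap junctions, while most chondrocytes of grown cartilage are enclosed singly in matrix.

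Values are on the deposited log2 scale after RMA, and a difference of 1 is a 2-fold difference in signal. Every difference is given with its standard error (SE) from limma, with 3 arrays per group and p-values adjusted by Benjamini-Hochberg over all 24016 probe sets, and a call means an adjusted p under 0.05. The p-values rest on the spread between the 3 calves within a group, in 1 fit of the 3 groups. Arrays of the same calf are paired only where the donor is a block. Results were recomputed under 22 alternative settings, or 20 or 21 for genes that a filter on low signal removed, and "every alternative" refers to those that kept the gene. In bulk RNA, fewer cells of a type and less RNA per cell cannot be told apart. The 7 measured cartilage markers, COL2A1 and ACAN among them, all rose in MSCs and did not pass the test between chondrocytes and MSCs at day 28, and their mean went from between 4.998 and 5.47 on the day 0 arrays to between 11.5 and 11.8 in day 28 MSCs. Control transcripts had a 3′ minus 5′ difference of 1.34 ± 0.23 (SD, n = 3) at day 0, of 1.81 ± 0.20 in the day 28 MSCs and of 1.81 ± 0.19 in the chondrocytes. The day 28 MSC and chondrocyte arrays of donor 3 had low hybridisation controls, at a mean of 8.80 against 11.7 on the other 7 arrays for bioC. The part of either in the results below was not tested, apart from fits without the 2 arrays or with them as a block.

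Channel genes read low on these arrays. All 3 group means lay under the 25th percentile of the array values (2.52) for 22 of the 78 genes, or 28.2%, against 11.4% of all genes, and a further 31 (39.7%, against 15.9%) stayed under the median of 4.98 in every group. The remaining 25 (32.1%) exceeded the median in at least 1 group, as did 72.6% of all genes. Signal depends on the probes as well as on the transcript, so that these shares describe the measurement and give no order of transcripts. Of the 22 lowest genes, CACNB4 was the only one called, in chondrocytes against day 0 MSCs. On 37 of the 78 genes at least 2 arrays shared an identical value, as SCN4B did at 1.96 on 7 of its 9 arrays. The tests used all 78 genes without a filter, and 53 would have passed a minimum mean at the 25th percentile of the probe sets and 21 one at their median.

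In MSCs, 6 of the 78 genes rose over the 28 days and 14 fell. The rises were those of TRPV4, KCNK1, KCNN4, KCNIP2, KCNK5 and CLCN3, and the falls included AQP11, CLIC1, AQP1, KCNJ2, GJA1 and P2RX4. These counts are 7.69% and 17.9% of the members, against 13.5% of all genes higher and 21.0% lower, and the median difference was -0.06 over the members and -0.11 over all genes. The share of rises was thus below that of all genes, and that of falls near it, without regard to signal level. Of the 25 members above the array median in at least 1 group, 5 rose and 7 fell. Among the 31 members under the median but not among the 22 lowest, 1 rose and 7 fell, and among those 22, 0 and 0. The part of low signal in these shares was not tested. With centring on ribosomal protein genes the counts over all 78 genes were 7 and 9. The count of falls was 9 without the day 0 array of donor 2, 7 without that of donor 3, and 8 without the day 28 MSC array of donor 1 or of donor 2.

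Between the day 28 cultures, chondrocytes exceeded MSCs in 4 genes, namely CLIC1, TRPC2, GJC1 and TRPV4, and 1 was lower, CACNB3. That is 5.13% and 1.28% of the members, against 8.35% of all genes higher and 4.81% lower, with medians of 0.02 over the members and -0.02 over all genes. With the donor as a block, which pairs the arrays of a calf, the counts were 8 higher and 2 lower, and with median centring 4 and 2. Without the day 28 MSC array of donor 2, or without the chondrocyte array of donor 2, 2 genes were higher. Without either day 28 array of donor 3, 2 were lower. Cell cycle markers differed between the same cultures, with 6 of 6 higher in chondrocytes, and their mean was 4.21 to 5.15 in day 28 MSCs and 8.54 to 8.85 in chondrocytes. Their part in the channel differences was not tested.

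Against day 0 MSCs, day 28 chondrocytes had 10 genes higher and 11 lower. The largest differences were those of KCNK1 and TRPV4 upward and of KCNJ2, AQP11 and CACNB3 downward. The shares were 12.8% and 14.1%, against 15.1% and 20.9% of all genes, and the medians were -0.07 over the members and -0.12 over all genes. The balance depended on the scaling, with 15 higher and 5 lower after centring on ribosomal protein genes, 9 and 16 after median centring, and 11 and 8 after cyclic loess. The higher count was 6 without the day 0 array of donor 1 or 2 or the chondrocyte array of donor 3. The lower count was 6 and 7 without the day 0 array of donor 2 or 3, and 5, 7 and 7 without the chondrocyte array of donor 1, 2 or 3. This comparison shares its arrays with the other 2, so that its counts are not a separate line of evidence. Over all 3 comparisons, 28 genes were called at least once and 50 never.

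**Figure D1:**
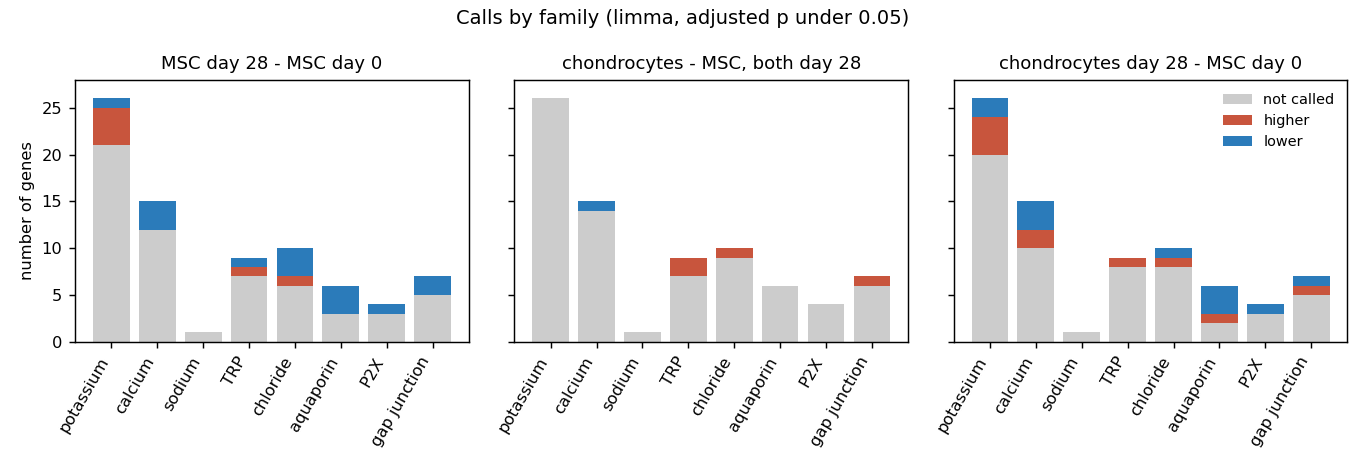
Number of channel genes (vertical axis) in each family (horizontal axis) that were higher, lower or not called in each of the 3 comparisons, by limma at an adjusted p under 0.05. In MSCs over 28 days, 4 of 26 potassium channel genes rose (15.4%), against 13.5% of all genes. Falls were seen in 3 of 6 aquaporin genes (50%) and 3 of 15 calcium channel genes (20%), against 21.0% of all genes. No aquaporin gene had a group mean above the array median. Between the day 28 cultures, 4 of 78 genes were higher (5.13%) and 1 was lower (1.28%), against 8.35% and 4.81% of all genes.

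**Figure D2:**
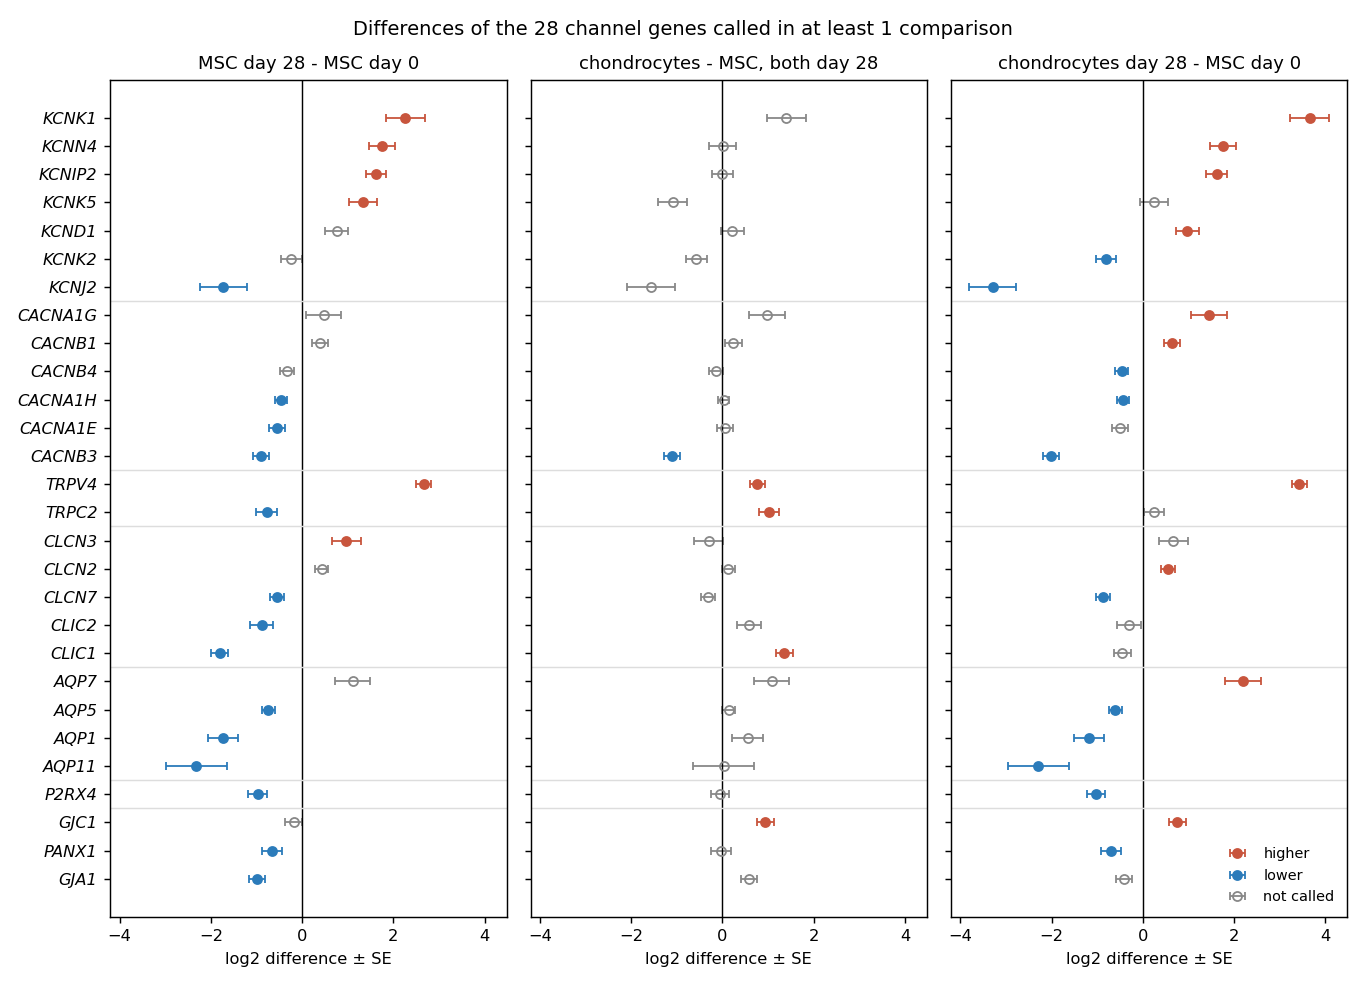
Log2 difference with its SE (horizontal axis) for the 28 genes called in at least 1 comparison, grouped by family, in the order potassium, calcium, TRP, chloride, aquaporin, P2X, and connexin or pannexin. Filled points passed the limma test and open points did not; TRPV4 was higher and CACNB3 lower in all 3 comparisons.

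TRPV4 was the only member called higher in all 3 comparisons. It forms a calcium-permeable channel that opens on cell swelling and mechanical load and is well known in chondrocytes, where its mutations cause skeletal dysplasias. It read 3.59, 3.69 and 3.91 in day 0 MSCs of donors 1, 2 and 3, 6.59, 6.23 and 6.37 in their day 28 MSCs, and 7.43, 7.04 and 7.02 in their chondrocytes. The 3 groups did not overlap. TRPV4 rose 6.34-fold in MSCs, a difference of 2.66 ± 0.17 with an adjusted p of 1.19e-05, and was 10.8-fold higher in chondrocytes than in day 0 MSCs (3.43 ± 0.17, adjusted p = 2.18e-06). At day 28 it was 1.70-fold higher in chondrocytes than in MSCs (0.77 ± 0.17, adjusted p = 0.0207). This last call ended without the day 28 MSC array of donor 2 (0.68) or without the chondrocyte array of donor 1 (0.63). It also ended without both day 28 arrays of donor 3 (0.82). The calls of the other 2 comparisons held in every alternative.

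TRPC2, a channel of the canonical TRP subfamily known from pheromone sensing in rodents, fell in MSCs and was higher in chondrocytes at day 28. Day 0 MSCs read 6.38, 6.61 and 6.74, day 28 MSCs 5.66, 5.40 and 6.34, and chondrocytes 6.86, 6.80 and 6.80. The day 28 MSCs lay below both other groups on every array, with donor 3 closest to them. The differences were -0.78 ± 0.23 (adjusted p = 0.0284) in MSCs and 1.02 ± 0.23 (adjusted p = 0.0212) between the day 28 cultures. The first lost its call without the day 0 array of donor 2 (-0.76) or 3 (-0.69) or the day 28 MSC array of donor 1 (-0.70) or 2 (-0.58), with centring on ribosomal protein genes (-0.68), and in a fit of only the 2 groups. The second lost it without the day 28 MSC array of donor 1 (0.95) or 2 (0.82), without any chondrocyte array (1.00, 1.03 and 1.03 for donors 1, 2 and 3), with the mean of the probe sets (0.40), and in a fit of only the 2 groups. The other 2 TRPC2 probe sets were not called. The remaining 7 TRP genes were not called: TRPC1, TRPC4, TRPC5 and TRPC6, which form receptor-operated cation channels, TRPM3, TRPV2 and the TRPC4-associated protein gene TRPC4AP. Of these, TRPC4AP had differences of 0.85 ± 0.48 in MSCs and 0.75 ± 0.48 in chondrocytes against day 0, and the other 6 stayed between -0.46 and 0.28 in the 3 comparisons.

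Of 15 voltage-gated calcium channel genes, 3 fell in MSCs (20%, against 21.0% of all genes) and 0 rose (against 13.5%). Calls went both ways among the pores and among the beta subunits in chondrocytes against day 0 MSCs. CACNB3 encodes a beta subunit, the cytoplasmic partner that carries high-voltage-activated channels to the membrane and tunes their gating. It read 9.35, 9.40 and 9.65 at day 0, 8.76, 8.72 and 8.21 in day 28 MSCs and 7.38, 7.56 and 7.40 in chondrocytes. The order was the same in every calf, with no overlap between the groups. CACNB3 fell 1.87-fold in MSCs (-0.91 ± 0.17, adjusted p = 0.00398), was 2.16-fold lower in chondrocytes than in MSCs at day 28 (-1.11 ± 0.17, adjusted p = 0.00418) and 4.05-fold lower than in day 0 MSCs (-2.02 ± 0.17, adjusted p = 5.3e-05). It was the only member called lower in all 3 comparisons, and the calls held in every alternative.

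CACNA1G, a pore-forming subunit of the low-voltage-activated T type, was higher in chondrocytes than in day 0 MSCs. Its values were 3.74, 3.45 and 3.82 at day 0, 3.88, 3.64 and 4.92 in day 28 MSCs and 5.40, 4.35 and 5.61 in chondrocytes. Donor 3 was highest and donor 2 lowest in all 3 groups. The difference of 1.45 ± 0.39 between chondrocytes and day 0 MSCs had an adjusted p of 0.0197, and lost its call without the day 0 array of donor 1 (1.48) or 2 (1.34), without the chondrocyte array of donor 1 (1.31) or 3 (1.20), and with the mean of the probe sets (0.45). The 0.97 ± 0.39 between the day 28 cultures had an adjusted p of 0.158, and of 0.0365 with the donor as a block, within a range of 0.0365 to 0.383 over the alternatives. A further CACNA1G probe set went the other way in MSCs and fell by 0.51 ± 0.17 (adjusted p = 0.0462), so that this gene has no settled direction there.

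The other T-type gene with a call, CACNA1H, was lower at day 28 in both cell types by less than 0.5. Its differences were -0.46 ± 0.12 (adjusted p = 0.0202) in MSCs and -0.44 ± 0.12 (adjusted p = 0.0255) in chondrocytes against day 0. Both calls ended without the day 0 array of donor 2 or 3 (-0.45 and -0.43, then -0.43 and -0.40), and the first also without the day 28 MSC array of donor 1 (-0.42) or 2 (-0.44) and the second without the chondrocyte array of donor 1 (-0.40) or 2 (-0.45). Another CACNA1H probe set, that of largest spread, read 0.06 in MSCs, and centring on ribosomal protein genes brought the differences to -0.37 and -0.17 and the mean of the probe sets to -0.13 and -0.16, with both calls ended. CACNA1E, the pore of R-type channels, fell by 0.55 ± 0.17 in MSCs (adjusted p = 0.0384). That call ended without any of the day 0 arrays (-0.61, -0.52 and -0.54 for donors 1, 2 and 3), without the day 28 MSC array of donor 1 (-0.54) or 3 (-0.47), without the chondrocyte array of donor 2 (-0.55), and in 5 further alternatives of arrays, scaling, weights or probe set choice, with values between -0.53 and -0.44. In chondrocytes against day 0 the CACNA1E difference of -0.50 ± 0.17 had an adjusted p of 0.0571, and of 0.0436 with the donor as a block, within a range of 0.0289 to 0.296.

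Both remaining calls of the calcium family were of beta subunits in chondrocytes against day 0 MSCs. CACNB1 was higher by 0.64 ± 0.18 (adjusted p = 0.0227). It lost its call without the day 0 array of donor 1 (0.64) or 2 (0.46) or the chondrocyte array of donor 1 (0.61) or 3 (0.62). The call also ended with median centring (0.52) and without both day 28 arrays of donor 3 (0.62). Its probe set of largest spread read -0.02 and the mean of its probe sets 0.05. CACNB4 was lower (-0.47 ± 0.15, adjusted p = 0.0435), with values of 2.06, 2.49 and 2.43 at day 0 and 1.98, 1.78 and 1.82 in chondrocytes, close to the floor of the array. It kept its call in 4 of 20 alternatives, and lost it without any 1 of 8 arrays, all but the day 0 array of donor 1, with differences between -0.53 and -0.39, and with the donor as a block (adjusted p = 0.0555, range 0.0164 to 0.34). The other 9 calcium channel genes, with CACNA1A, CACNA1B, CACNA1D, CACNA1I and CACNA1S among the pores and CACNA2D1, the alpha2-delta subunit, were not called. CACNA2D1 had -0.52 ± 0.20 in MSCs and -0.60 ± 0.20 in chondrocytes against day 0. A second CACNA1D probe set rose in MSCs by 1.07 ± 0.32 (adjusted p = 0.0336), while that of highest mean differed by 0.27 ± 0.21. The neuron and glia markers, cells in which most of these channels are studied, had mean levels of 3.37 to 3.51 at day 0, 3.95 to 4.0 in day 28 MSCs and 4.61 to 4.94 in chondrocytes, over 6 of 9 listed genes. S100B, which cartilage also expresses, GFAP and SNAP25 were higher in chondrocytes than in day 0 MSCs, while NEFL, ELAVL4 and SYT1 averaged 1.63 to 2.44 in every group, and the part of such cells was not tested.

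Of 26 potassium channel genes, 4 rose in MSCs (15.4%, against 13.5% of all genes) and 1 fell (3.85%, against 21.0%). KCNK1 encodes TWIK-1, a 2-pore domain channel that carries background potassium current. Its values were 4.96, 3.15 and 4.61 at day 0, 6.59, 5.95 and 6.96 in day 28 MSCs and 7.75, 8.0 and 7.95 in chondrocytes. No array of a group overlapped another group, and the spread was widest at day 0, where donor 2 was low. KCNK1 rose 4.79-fold in MSCs (2.26 ± 0.43, adjusted p = 0.00376) and was 12.6-fold higher in chondrocytes than in day 0 MSCs (3.66 ± 0.43, adjusted p = 0.000286), in every alternative. The 1.40 ± 0.43 between the day 28 cultures had an adjusted p of 0.0754, and of 0.0368 with the donor as a block, within a range of 0.0123 to 0.21. A second KCNK1 probe set read between 2.15 and 3.26 on all arrays and was not called, and the mean of both rose by 1.05 in MSCs and was 1.96 higher in chondrocytes than at day 0.

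KCNN4, the intermediate-conductance channel opened by calcium and calmodulin, rose in MSCs and differed as much between chondrocytes and day 0 MSCs. Its values were 3.98, 4.43 and 3.63 at day 0, 5.89, 5.68 and 5.72 in day 28 MSCs, and 6.44, 5.44 and 5.43 in chondrocytes. Both day 28 groups lay above every day 0 array and overlapped each other. The differences from day 0 were 1.75 ± 0.29 (3.36-fold, adjusted p = 0.00186) in MSCs and 1.76 ± 0.29 (3.38-fold, adjusted p = 0.00188) in chondrocytes, and that between the day 28 cultures was 0.01 ± 0.29. KCNN4 is also known from blood cells. Of 10 blood cell markers, the genes CTSS, CD68, AIF1 and TYROBP fell in MSCs and CSF1R rose by 1.62. In chondrocytes against day 0 those 4 were lower, while CSF1R was higher by 3.23 (adjusted p = 0.00027) and CD14 by 2.67 (adjusted p = 0.0167), and between the day 28 cultures CSF1R was higher by 1.60 and CTSS lower. PTPRC averaged 2.15 to 2.49 and CD3E and CD79A 1.94 to 2.21 in every group. The mean of the list was 3.47 to 4.53 at day 0, 3.52 to 3.62 in day 28 MSCs and 3.91 to 4.0 in chondrocytes. The part of blood cells in the KCNN4 differences was not tested.

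KCNIP2 and KCND1 encode partners of 1 channel type, the KChIP2 protein that binds calcium and modulates Kv4 channels and the Kv4.1 pore. KCNIP2 read 2.74, 3.31 and 3.26 at day 0, 4.51, 4.91 and 4.75 in day 28 MSCs and 5.15, 4.51 and 4.51 in chondrocytes. Day 0 stood apart from both day 28 groups, which overlapped. It rose by 1.62 ± 0.23 in MSCs (adjusted p = 0.000742) and was 1.62 ± 0.23 higher in chondrocytes than at day 0 (adjusted p = 0.000752). A second KCNIP2 probe set was not called, and the means of both differed by 0.82 and 0.75. KCND1 read 5.08, 4.95 and 5.35 at day 0, 5.79, 5.44 and 6.42 in day 28 MSCs and 6.17, 5.77 and 6.36 in chondrocytes, and the order of the donors was the same in each group. It was higher in chondrocytes than at day 0 by 0.98 ± 0.26 (adjusted p = 0.0184), which no longer passed without the day 0 array of donor 1 (0.95) or 2 (0.89) or the chondrocyte array of donor 1 (0.94) or 3 (0.85). In MSCs the KCND1 difference of 0.76 ± 0.26 had an adjusted p of 0.0524, and of 0.00701 with the donor as a block, the lowest of a range up to 0.146.

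KCNK5 encodes TASK-2, a 2-pore domain channel sensitive to pH and cell swelling, and its rise was seen in MSCs. Day 0 MSCs read 7.78, 8.28 and 8.57, day 28 MSCs 9.51, 10.12 and 8.99, and chondrocytes 8.33, 8.80 and 8.20. Day 28 MSCs exceeded both other groups on every array, and chondrocytes overlapped day 0 MSCs. KCNK5 rose by 1.33 ± 0.31 in MSCs (2.52-fold, adjusted p = 0.0103) in every alternative. Chondrocytes differed from day 28 MSCs by -1.09 ± 0.31 with an adjusted p of 0.0568, and of 0.0354 with the donor as a block, within a range of 0.0216 to 0.154. KCNK17, its neighbour in the bovine genome and also a 2-pore domain channel, was not called, with differences of -0.13, -0.04 and -0.17.

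KCNJ2 encodes Kir2.1, the inward rectifier that holds many cells near the potassium equilibrium potential, and fell furthest among the potassium channel genes. Its values were 5.42, 6.62 and 5.64 at day 0, 4.01, 4.0 and 4.49 in day 28 MSCs, and 2.06, 1.83 and 3.91 in chondrocytes. The groups did not overlap, and the chondrocyte array of donor 3, one of the pair with low hybridisation controls, stood well above the other 2. KCNJ2 was 9.79-fold lower in chondrocytes than in day 0 MSCs (-3.29 ± 0.52, adjusted p = 0.00144), in every alternative. The chondrocyte values of donors 1 and 2 lay under the 25th percentile of 2.52, near the array floor, so that the size of this fold is uncertain. Its fall in MSCs was -1.73 ± 0.52 (adjusted p = 0.033), which no longer passed without the day 0 array of donor 2 (-1.36) or 3 (-1.85) or the day 28 MSC array of donor 1 (-1.65) or 2 (-1.64). Between the day 28 cultures -1.57 ± 0.52 did not pass (adjusted p = 0.0952), but passed with the low-control arrays as a block (-1.57), without both of them (-2.06) and without the chondrocyte array of donor 3 alone (-2.22). KCNJ16, its neighbour in the genome, and KCNJ8, KCNJ10 and KCNJ15, further inward rectifiers, stayed between -0.29 and 0.39 in all comparisons and were not called.

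KCNK2, the stretch-activated TREK-1 channel, was lower in chondrocytes than in day 0 MSCs (-0.81 ± 0.23, adjusted p = 0.024). It read 2.52, 3.11 and 2.96 at day 0, 3.07, 2.57 and 2.24 in day 28 MSCs and 2.15, 2.04 and 1.98 in chondrocytes, which lay below both MSC groups. The call ended without the day 0 array of donor 2 (-0.68) or 3 (-0.76), without any chondrocyte array (-0.86, -0.80 and -0.77 for donors 1, 2 and 3), and with centring on ribosomal protein genes (-0.54).

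The large-conductance calcium-activated (BK) channel is built from the KCNMA1 pore and KCNMB beta subunits. KCNMA1 read 9.36, 9.84 and 10.00 at day 0, 9.68, 9.24 and 9.72 in day 28 MSCs and 9.69, 9.58 and 10.04 in chondrocytes, and the 3 groups overlapped. Its differences of -0.19, 0.22 and 0.03 (SE 0.22) were not called. A further KCNMA1 probe set was higher in chondrocytes than in day 0 MSCs by 1.07 ± 0.28 (adjusted p = 0.0174), with 7.43, 6.70 and 7.56 against 5.75, 6.48 and 6.26, so that the probe sets of this gene disagree. KCNMB4, a beta subunit named here after its values were seen, had wide spread in MSCs and little in chondrocytes. It read 5.02, 6.45 and 7.26 at day 0, 5.44, 5.04 and 6.61 in day 28 MSCs and 7.57, 7.46 and 7.28 in chondrocytes, which lay above both MSC groups. The 1.74 ± 0.55 between the day 28 cultures had an adjusted p of 0.0796, and of 0.045 with the donor as a block, within a range of 0.0311 to 0.219. KCNMB1 was not called. Smooth muscle markers, of a tissue rich in BK channels, fell in MSCs for 3 of 4 genes. Their mean was 7.78 to 8.81 at day 0, 4.35 to 4.99 in day 28 MSCs and 6.27 to 7.30 in chondrocytes. The part of such cells in the BK channel values was not tested.

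**Figure D3:**
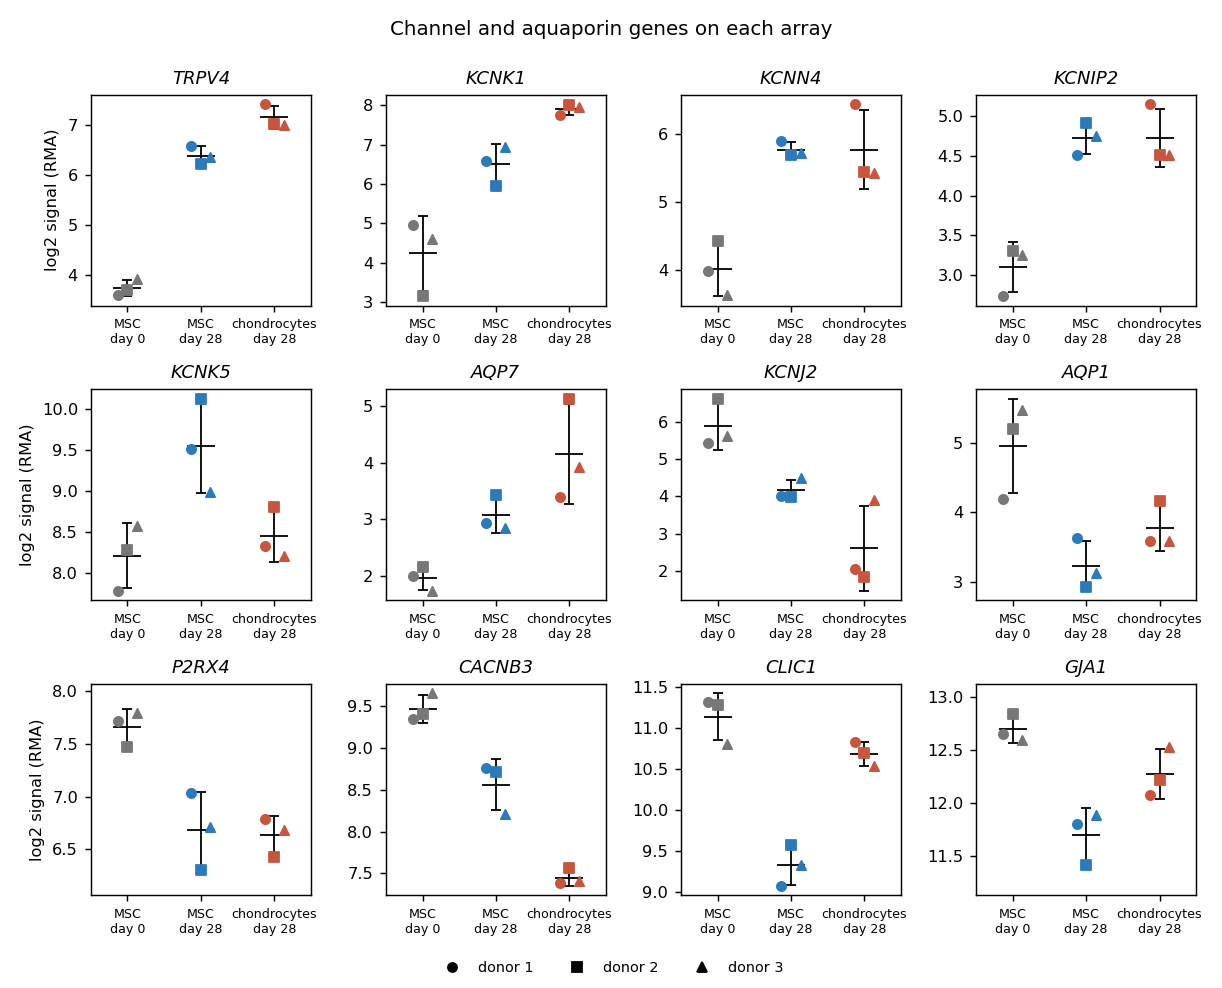
Log2 signal (vertical axis, a separate scale in each panel) of 12 channel and aquaporin genes on the 9 arrays, by group (horizontal axis). Symbols mark the donors, and black bars the mean ± SD of 3 arrays. TRPV4, KCNK1, CACNB3, KCNJ2 and GJA1 showed no overlap between any 2 of the 3 groups, while KCNN4 and KCNIP2 overlapped between the day 28 cultures.

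Among the chloride channel genes, CLIC1 moved most. CLIC proteins pass between a soluble form and membranes, and CLIC1 has been tied to chloride currents and to redox and cytoskeletal regulation. Its values were 11.31, 11.28 and 10.80 at day 0, 9.08, 9.57 and 9.33 in day 28 MSCs and 10.83, 10.69 and 10.53 in chondrocytes. Day 28 MSCs lay below every other array, and chondrocytes overlapped day 0 MSCs. CLIC1 fell 3.50-fold in MSCs (-1.81 ± 0.19, adjusted p = 0.00015) and was 2.56-fold higher in chondrocytes than in MSCs at day 28 (1.36 ± 0.19, adjusted p = 0.00226), and both calls held in every alternative. Cell cycle markers were also lowest in day 28 MSCs, with a mean of 7.32 to 7.82 at day 0 besides the day 28 values above, and their part was not tested.

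CLIC2 fell in MSCs by 0.89 ± 0.26 (adjusted p = 0.0295), although its groups overlapped, with 2.93, 3.61 and 3.33 at day 0 and 2.29, 1.98 and 2.93 at day 28. The CLIC2 call ended without the day 0 array of donor 2 (-0.73) or 3 (-0.87) or the day 28 MSC array of donor 1 (-0.84) or 2 (-0.68), with centring on ribosomal protein genes (-0.79), with the mean of the probe sets (-0.50) and in a fit of only the 2 groups. CLIC4, which like CLIC1 exists in soluble and membrane forms, read 10.16 to 10.59 at day 0, 10.52 to 10.93 in day 28 MSCs and 10.49 to 10.55 in chondrocytes, and was not called. A second CLIC4 probe set fell in MSCs by 0.52 ± 0.12 (adjusted p = 0.011) and was lower in chondrocytes than at day 0, at -0.65 ± 0.12 (adjusted p = 0.00363), so that the 4 CLIC4 probe sets disagree. CLIC5 differed by -0.45 ± 0.19 in MSCs (adjusted p = 0.113, and 0.0462 with the donor as a block, range 0.0399 to 0.323).

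The CLCN genes encode plasma membrane chloride channels and the chloride-proton exchangers of endosomes and lysosomes. CLCN7, the lysosomal exchanger known from bone resorption, read 6.21, 6.22 and 6.19 at day 0, 5.84, 5.72 and 5.40 in day 28 MSCs and 5.46, 5.41 and 5.15 in chondrocytes. Both day 28 groups lay below day 0. CLCN7 was lower in chondrocytes than in day 0 MSCs, at -0.87 ± 0.15 (adjusted p = 0.00252) in every alternative. Its fall in MSCs, -0.56 ± 0.15 (adjusted p = 0.0219), lost its call without any day 0 array (-0.55, -0.55 and -0.56 for donors 1, 2 and 3) or the day 28 MSC array of donor 3 (-0.43), without both low-control arrays (-0.43), with the mean of the probe sets (-0.42) and with trended and robust variance.

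CLCN3, an endosomal exchanger, rose in MSCs by 0.97 ± 0.32, with an adjusted p of 0.0482 at the edge of the threshold. Its values of 7.64, 7.22 and 7.09 at day 0 overlapped those of 8.37, 8.90 and 7.61 at day 28, and chondrocytes read 8.40, 7.74 and 7.80. The CLCN3 call ended without any day 0 array (1.14, 0.92 and 0.86 for donors 1, 2 and 3), the day 28 MSC array of donor 1 (0.93) or 2 (0.67) or the chondrocyte array of donor 2 or 3 (0.97), with median centring (0.92), and in a fit of only the 2 groups. CLCN2, a plasma membrane channel opened by hyperpolarisation and swelling, was higher in chondrocytes than at day 0 by 0.56 ± 0.15 (adjusted p = 0.0205), with 5.08, 5.14 and 5.45 against 4.74, 4.64 and 4.62. That call ended without the day 0 array of donor 2 (0.54) or 3 (0.53) and without the chondrocyte array of donor 3 (0.45). It also ended without both day 28 arrays of donor 3 (0.45) and with trended and robust variance. CLCN4, ANO9 and ANO10 were not called. ANO10, of the anoctamin family, had differences of -0.59 ± 0.22 in MSCs and 0.55 ± 0.22 between the day 28 cultures.

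Of the 6 aquaporin genes, 3 fell in MSCs, and the same 3, AQP1, AQP5 and AQP11, were lower in chondrocytes than in day 0 MSCs, against 21.0% and 20.9% of all genes. Both comparisons use the same day 0 arrays. None of the 6 had a group mean above the array median of 4.98, while 72.6% of all genes exceeded it in at least 1 group. The day 28 means of AQP5 (2.59 in MSCs and 2.73 in chondrocytes) and AQP11 (2.59 and 2.62) lay close to the 25th percentile of 2.52. The part of low signal in these falls was not tested. AQP1, a water-selective channel, read 4.19, 5.20 and 5.48 at day 0, 3.62, 2.93 and 3.12 in day 28 MSCs and 3.58, 4.16 and 3.59 in chondrocytes. Every day 28 array lay below every day 0 array, with chondrocytes and MSCs overlapping. AQP1 fell 3.32-fold in MSCs (-1.73 ± 0.34, adjusted p = 0.00412) in every alternative, although the mean of its 3 probe sets fell by 0.78, since the other 2 were not called. In chondrocytes against day 0, -1.18 ± 0.34 (adjusted p = 0.0258) lost its call without the day 0 array of donor 2 (-1.06) or 3 (-0.92) or the chondrocyte array of donor 1 (-1.08) or 3 (-1.09), with the low-control arrays as a block (-1.11) or left out (-1.09), with ribosomal centring (-0.92), and with the mean of the probe sets (-0.49). AQP1 is abundant in endothelium and in red cells. Among 7 listed endothelial markers, PECAM1, CDH5, VWF and KDR averaged 1.87 to 2.66 in each group, while TEK and ERG rose in MSCs. HBB, of red cells, averaged 2.08 to 2.23. The part of such cells in the AQP1 differences was not tested.

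AQP11, an aquaporin of intracellular membranes, had the widest spread of the family. It read 6.37, 3.08 and 5.28 at day 0, 2.80, 2.10 and 2.87 in day 28 MSCs and 2.69, 2.47 and 2.69 in chondrocytes. The day 0 MSCs of donor 2 lay just above the day 28 arrays, and those of donors 1 and 3 far above them. The differences were -2.32 ± 0.67 (adjusted p = 0.0276) and -2.29 ± 0.67 (adjusted p = 0.0286) from day 0 to the 2 day 28 cultures. Both ended without the day 0 array of donor 1 (-1.59 and -1.56) or 3 (-2.14 and -2.11) and without both low-control arrays (-2.46 and -2.33), the first also without the day 28 MSC array of donor 1 (-2.43) or 2 (-2.07) and in a fit of only the 2 groups, and the second without any chondrocyte array (-2.33, -2.22 and -2.33 for donors 1, 2 and 3).

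AQP5, a water channel of secretory epithelia, read 3.11, 3.47 and 3.42 at day 0, 2.53, 2.65 and 2.60 in day 28 MSCs and 2.84, 2.67 and 2.69 in chondrocytes. Its differences from day 0 were -0.74 ± 0.14 (adjusted p = 0.00344) and -0.60 ± 0.14 (adjusted p = 0.01), and the second was -0.34 and lost its call with centring on ribosomal protein genes. AQP7 passes glycerol as well as water, and went the other way. It read 1.99, 2.15 and 1.73 at day 0, 2.93, 3.44 and 2.85 in day 28 MSCs and 3.39, 5.13 and 3.93 in chondrocytes, with donor 2 highest in every group. Day 0 lay below all day 28 arrays. AQP7 was 4.57-fold higher in chondrocytes than in day 0 MSCs (2.19 ± 0.39, adjusted p = 0.00253) in every alternative. All day 0 values of AQP7 lay under the 25th percentile of 2.52, near the array floor, so that the size of this fold is uncertain. Its differences of 1.11 ± 0.39 in MSCs (adjusted p = 0.0569) and 1.08 ± 0.39 between the day 28 cultures (adjusted p = 0.116) did not pass, and with the donor as a block both did (adjusted p = 0.0159, range 0.00717 to 0.16, and 0.0393, range 0.0393 to 0.261). AQP3, a glycerol channel found in chondrocytes of other species and the genomic neighbour of AQP7, read 2.17 to 2.55 on all arrays and was not called, nor was AQP4.

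P2X receptors are cation channels opened by extracellular ATP, which loaded cartilage releases. P2RX4 read 7.72, 7.47 and 7.79 at day 0, 7.03, 6.30 and 6.72 in day 28 MSCs and 6.78, 6.43 and 6.69 in chondrocytes. Both day 28 groups lay below day 0 and overlapped. It fell by 0.98 ± 0.20 in MSCs (1.97-fold, adjusted p = 0.00542), was lower in chondrocytes than at day 0, at -1.03 ± 0.20 (adjusted p = 0.00436), and kept both calls in every alternative. P2RX4 and P2RX7 are well known in macrophages, so that the blood cell markers given with KCNN4 stand beside this result, with CSF1R and CD14 higher and the other 4 called genes lower in chondrocytes against day 0, and their part was not tested. P2RX7, the next gene along the chromosome, was not called by its probe set of highest mean (-0.20 ± 0.23 in MSCs), although another probe set, reading 1.42 to 2.23, fell by 0.49 ± 0.14 (adjusted p = 0.0262). P2RX2 and P2RX5 were not called.

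Connexins and pannexins form the channels between cells and the large pores that release ATP. GJA1 encodes the main gap junction protein of stromal cells and chondrocytes. It read 12.65, 12.84 and 12.60 at day 0, 11.80, 11.41 and 11.89 in day 28 MSCs and 12.07, 12.22 and 12.53 in chondrocytes. The 3 groups did not overlap, with chondrocytes in between. GJA1 fell 2.00-fold in MSCs (-0.997 ± 0.177, adjusted p = 0.0026) in every alternative, with a fall of 0.56 for the mean of its 2 probe sets, the other of which read 1.28 to 1.58 and was not called. Chondrocytes did not pass against either MSC group, at 0.57 ± 0.18 (adjusted p = 0.0759) against day 28 and -0.42 ± 0.18 (adjusted p = 0.104) against day 0. With the low-control arrays as a block both passed (adjusted p = 0.0383, range 0.0294 to 0.203, and 0.033, range 0.033 to 0.593), as each did in 2 further alternatives.

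GJC1, which encodes a connexin known from the conduction tissue of the heart, was higher in chondrocytes than in both MSC groups. It read 4.36, 4.80 and 4.31 at day 0, 4.18, 4.65 and 4.09 in day 28 MSCs and 5.28, 5.27 and 5.18 in chondrocytes, and the MSC groups overlapped each other only. The differences were 0.94 ± 0.19 from day 28 MSCs (adjusted p = 0.0145) and 0.75 ± 0.19 from day 0 MSCs (adjusted p = 0.0151). The first lost its call without the chondrocyte array of donor 2 (0.92) or both low-control arrays (0.86), and the second without the day 0 array of donor 1 (0.69) or 3 (0.66). Donor 2 was the highest of the 3 calves in both MSC groups.

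PANX1, a pannexin through which cells release ATP, read 3.55, 3.12 and 2.86 at day 0, 2.68, 2.34 and 2.51 in day 28 MSCs and 2.34, 2.82 and 2.29 in chondrocytes. Day 28 arrays lay below day 0, with little room between donor 3 at day 0 and donor 2 in chondrocytes. The differences were -0.67 ± 0.21 (adjusted p = 0.043) and -0.69 ± 0.21 (adjusted p = 0.0359). The first ended in 13 of 21 alternatives, among them those without the day 0 array of donor 1 (-0.48) or 2 (-0.69), any day 28 MSC array (-0.75, -0.58 and -0.67 for donors 1, 2 and 3) and the chondrocyte array of donor 1 or 3 (-0.67). The second ended in 9, among them those without the day 0 array of donor 1 (-0.51) or 2 (-0.72) and the chondrocyte array of donor 1 (-0.62) or 3 (-0.60), and read -0.43 with ribosomal centring. GJB1, GJB2, GJB5 and GJB6, connexins best known from epithelia and the inner ear, were not called, and their 12 differences lay between -0.28 and 0.07.

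The sodium channel family had 1 member, the accessory subunit gene SCN4B, at 1.96 or 1.78 on every array and not called. The 20 potassium channel genes without a call in chondrocytes against day 0 MSCs included the voltage-gated KCNA4, KCNB2, KCNH1, KCNH3, KCNQ1 and KCNQ3 and the accessory KCNE1 and KCNE2. Of all 26, 0 passed between the day 28 cultures, against 8.35% of all genes higher and 4.81% lower. The donor block called KCNK1, KCNMB4 and KCNK5 there.

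The spread between the arrays of a group was wide in some channel genes. A plot by donor shows 4 of them, which were chosen after their values were seen. With 1 array per calf in each group, calf, culture and array cannot be told apart. KCNE4, a beta subunit that dampens Kv channels, read 5.53, 7.26 and 5.80 at day 0, 7.79, 8.09 and 6.28 in day 28 MSCs and 6.51, 7.09 and 6.39 in chondrocytes, with donor 2 highest in each group. Its 1.19 ± 0.54 in MSCs had an adjusted p of 0.135, and of 0.0299 with the donor as a block, within a range of 0.0255 to 0.354. Of 58 members without ties inside a group, 9 (15.5%) had the same calf highest in all 3 groups and 3 (5.17%) the same order of calves, KCND1, CACNA1G and CACNA1H, against 19.5% and 6.54% of the 7920 such genes of the arrays. The shares among channel genes were thus no higher than those among all genes.

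**Figure D4:**
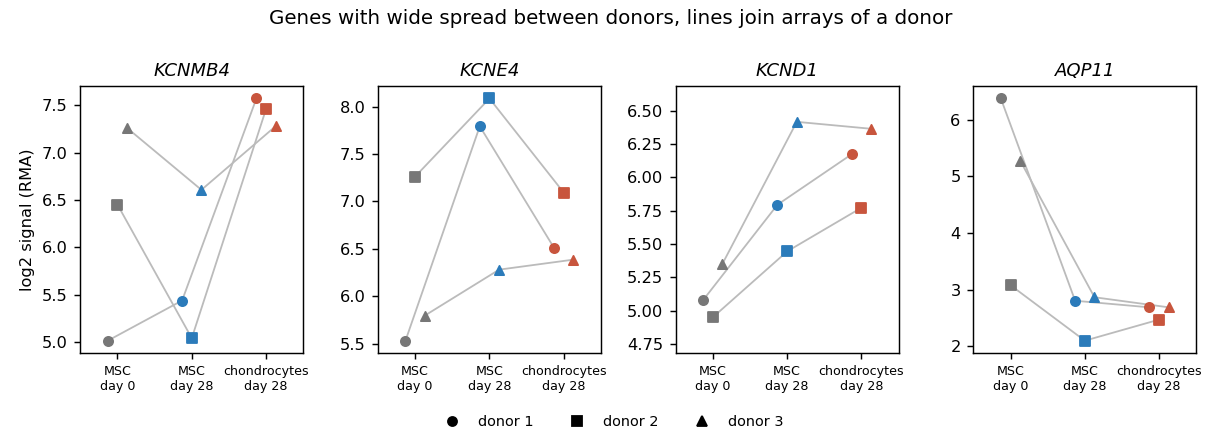
Log2 signal (vertical axis, a separate scale in each panel) of KCNMB4, KCNE4, KCND1 and AQP11 on the 9 arrays, by group (horizontal axis), with lines that join the 3 arrays of a calf. KCNMB4 spanned 5.02 to 7.26 at day 0 and 7.28 to 7.57 in chondrocytes, and KCND1 kept its order of calves in each group.

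Genes that work beside channels were read from 4 lists, whose counts stand against the shares of all genes given above (13.5% higher and 21.0% lower in MSCs, 8.35% and 4.81% between the day 28 cultures, 15.1% and 20.9% in chondrocytes against day 0). Pumps and cotransporters, which set the ion gradients, had 3 rises and 4 falls among 15 measured genes in MSCs, 2 higher and 0 lower in chondrocytes than MSCs at day 28, and 4 higher and 2 lower in chondrocytes than at day 0, with medians of -0.29, 0.35 and 0.04. SLC4A7, a sodium bicarbonate cotransporter, rose by 2.16 ± 0.19 in MSCs (adjusted p = 6.37e-05), and ATP1B1, a beta subunit of the sodium pump, by 1.23 ± 0.23 (adjusted p = 0.00307). ATP2B1, the plasma membrane calcium pump, and SLC4A2, an anion exchanger, were higher in chondrocytes than in day 28 MSCs, by 1.33 ± 0.15 (adjusted p = 0.000794) and 0.70 ± 0.15 (adjusted p = 0.0191).

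The calcium store list, which covers release, entry and sensing, had 3 genes higher and 2 lower of 16 in each comparison, with medians between -0.03 and 0.03. ITPR2, a receptor that releases calcium from the endoplasmic reticulum on inositol trisphosphate, was higher in all 3, by 2.54 ± 0.22 (adjusted p = 6.08e-05) in MSCs, 1.45 ± 0.22 (adjusted p = 0.00345) between the day 28 cultures and 3.99 ± 0.22 (adjusted p = 3.84e-06) in chondrocytes against day 0. CALM3, a calmodulin gene, fell in MSCs by 1.75 ± 0.23 (adjusted p = 0.000507). CAMK2D, a calmodulin-dependent kinase, was lower in chondrocytes than in day 28 MSCs (-0.88 ± 0.17, adjusted p = 0.0123), and NFATC1, a calcium-regulated transcription factor, was higher in chondrocytes than at day 0 (1.14 ± 0.18, adjusted p = 0.00132).

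Volume and osmotic response genes had 1 rise and 3 falls of 8 in MSCs, 0 and 0 between the day 28 cultures, and 1 higher and 2 lower in chondrocytes against day 0, with medians of -0.35, 0.20 and -0.11. LRRC8C, a subunit of the volume-regulated anion channel that the symbol rule does not take, fell by 1.09 ± 0.23 in MSCs (adjusted p = 0.00659), and the heat shock gene HSPA1A rose by 1.39 ± 0.27 (adjusted p = 0.00439). Anchoring and junction partners had 0 rises and 3 falls of 8 in MSCs, 1 higher and 0 lower between the day 28 cultures, and 0 higher and 2 lower in chondrocytes against day 0, with medians of -0.69, 0.18 and -0.11. CDH2, the N-cadherin of cell contacts, fell by 4.94 ± 0.60 in MSCs (adjusted p = 0.000334) and was higher in chondrocytes than in day 28 MSCs by 2.78 ± 0.60 (adjusted p = 0.0189). CDH11, a mesenchymal cadherin, fell by 0.995 ± 0.188 in MSCs (adjusted p = 0.0036).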

How the data were processed

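The deposited log2 values came from RMA, as the submitters' processing notes name it (background correction, quantile normalization between arrays and a summary per probe set). The sources used here do not give its version. Quantile normalization gives the probe intensities of all arrays 1 distribution, and a shift in the total RNA of a cell is lost. After the summary per probe set, array medians still ran from 4.91 (day 0 MSCs of donor 3) to 5.10 (chondrocytes of donor 3). Of 24128 probe sets, 112 controls were left out. Gene symbols are those of the platform annotation after an update through a RefSeq table of ARS-UCD2.0, which also gave the neighbouring genes. A gene was read from its probe set of highest mean.

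All 3 groups were fitted in 1 model with lmFit and eBayes of limma 3.58.1 (R 4.3.3). The code was checked on simulated arrays of independent normal values, without donor pairing, tied values or an array floor. That check covers the code and not how well the model suits these data. Members and lists were chosen with earlier results of these data known. Named genes were, per comparison, the 8 largest called rises and falls, per family the genes of highest mean and largest SD, and a fixed list; from context lists, the 2 called genes of smallest p. Other genes were named after their values were seen. The marker lists also held marrow stromal genes, of which 3 of 8 fell in MSCs, and skeletal muscle genes, of which 1 of 7 rose and 1 fell.

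Donor numbers mark the calf, so that they pair the arrays: deviations from group means correlated from 0.108 to 0.412 over 9 pairs of the same calf, and from -0.303 to 0.152 over 18 pairs of different calves. Alternatives were the donor block, the 2 low-control arrays as a block or left out, 3 other scalings, 2 filters on low signal, 2 choices of probe set, trended and robust variance, array weights, fits of only the 2 groups, and each array left out.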

Additional observations from a re-analysis of the deposited data

How the results depend on the processing

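Over 22 alternatives, 22 of the 46 calls, made in 28 genes, held in each alternative that kept the gene. With the donor as a replicate block, the counts between the day 28 cultures were 8 higher and 2 lower, and only CACNB4 lost a call. The day 28 count of 1 lower was 3 with the low-control arrays as a block, and 2 without these arrays, with median centring, with the filter at the 25th percentile or the median, and with trended and robust variance; without these arrays 2 genes were higher. Falls in MSCs numbered 9 with ribosomal centring and 6 with the filter at the median. In chondrocytes against day 0 MSCs, 15 were higher and 5 lower with ribosomal centring, 9 and 16 with median centring, and 6 were higher and 3 lower with the filter at the median, which kept 21 of the 78 genes. With 1 array left out, the counts ran from 5 to 8 higher and 7 to 14 lower in MSCs, 2 to 6 higher and 1 to 2 lower between the day 28 cultures, and 6 to 11 higher and 5 to 10 lower in chondrocytes against day 0. With the probe set of largest SD, CACNA1H read 0.056 in MSCs and CACNB1 -0.024 in chondrocytes against day 0. Ribosomal centring shifted the median over all probe sets by 0.17 between the day 28 cultures and by 0.26 in chondrocytes against day 0, and median centring by -0.12 in the latter. Members near the array floor limit what could be detected.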
